A study of Homo sapiens with 14 samples.

Results

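The 6 genes MCM2, MCM3, MCM4, MCM5, MCM6 and MCM7 encode the subunits of the replicative helicase, and the data described here are the A-to-G sites listed inside their hg19 spans in HEK293T cells carrying RNA base editors. HEK293T is an established human line of embryonic kidney origin. A listed site is a genomic adenosine that read as guanosine in RNA, and its level is the deposited A-to-G rate, a fraction from 0 to 1. Of 26172 distinct sites over all 14 libraries, 288 lay inside the 6 spans: 59 in MCM7, 54 in MCM2, 51 in MCM5, 46 in MCM4, 41 in MCM6 and 37 in MCM3. The genes were chosen by name with earlier results of these lists known, and the sites were selected on being listed, so the numbers of sites and their median levels below are a description and carry no test. The 14 libraries formed 7 groups of 2. The guides were NT and EZH2_A22 for each of the editors Repair.v2 and Repair.t1, and NT and EZH2 for dCas13d-ADAR. The only guide used with DECOR was MALAT1. All carried an editor, so no library shows which sites would be listed without one. Nothing in the labels ties replicates to separate cultures. The p-values below are therefore relative to a spread between libraries that may be only technical.

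MCM2 to MCM7 form a ring that is loaded onto replication origins before DNA synthesis and that unwinds the double helix at the fork together with CDC45 and the GINS complex. Their transcripts are abundant in dividing cells, where E2F factors drive them. An RNA base editor joins an RNA-guided or RNA-binding part to an adenosine deaminase. The deaminase turns adenosine into inosine, which sequencing reads as guanosine, and it can also act on transcripts that the guide does not target. None of the guides is named for an MCM gene.

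The spans on hg19 were chr3:127317200-127341278 for MCM2, chr6:52128812-52149679 for MCM3, chr8:48873000-48890720 for MCM4, chr22:35796056-35821423 for MCM5, chr2:136597196-136634047 for MCM6 and chr7:99690351-99699563 for MCM7. MCM2, MCM4 and MCM5 are read towards higher coordinates and MCM3, MCM6 and MCM7 towards lower ones. The direction of MCM4 and MCM5 is textbook knowledge, not read from a table used here, and every 5′ or 3′ statement on these 2 genes rests on it. Distances below run from the 5′ end of the span in that direction. Exons, introns and UTRs of this build were not analysed here, and the lists hold no strand. A site inside a span may therefore belong to another gene there. In the RefSeq table of GRCh38.p14, MCM7 overlaps AP4M1 and the microRNA genes MIR25, MIR93 and MIR106B, and MCM2 overlaps the lncRNA LOC107986126, while the other 4 overlap no listed gene. Few sites lay just outside the spans. Widening each by 1000 bases added 3 sites, and the nearest outside site was 877 bases below the MCM7 span, at a mean level of 0.188, against 0.192 for the first site inside, which lay 135 bases from the border.

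The lists differed in length between editors, at 46 to 101 sites for Repair.v2, 4356 to 4784 for Repair.t1, 5730 to 5834 for dCas13d-ADAR and 5516 to 5855 for DECOR. The DECOR libraries were read for 62 and 160 cycles and all others for 25 and 97, which means that its editor, its guide and its read length cannot be told apart. The files hold no read counts. Sequencing depth is therefore unknown for every library and every site, and an absent site may have been unedited, under the calling threshold or poorly covered.

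DECOR libraries listed the most MCM sites and dCas13d-ADAR libraries about 1.86 times as many as Repair.t1 libraries. The 2 DECOR libraries listed 121 and 116 MCM sites. The 4 dCas13d-ADAR libraries listed 63 and 72 with the NT guide and 68 and 67 with the EZH2 guide. The 4 Repair.t1 libraries listed 43 and 30 with the NT guide and 41 and 31 with the EZH2_A22 guide. The libraries of these 3 editors did not overlap, and within dCas13d-ADAR and Repair.t1 the guides did. Repair.v2 listed 0 and 0 with the NT guide and 1 and 2 with the EZH2_A22 guide, all in MCM4. As a share of each library's own list, MCM sites made up 2.09% ± 0.150 for DECOR (SD, n = 2), 1.17% ± 0.0588 for dCas13d-ADAR (n = 4) and 0.779% ± 0.131 for Repair.t1 (n = 4), so the order of the 3 editors was the same as for the numbers. The Repair.v2 shares were 0% and 0% with NT and 1.15% and 1.98% with EZH2_A22, a mean of 0.782% ± 0.965 (SD, n = 4). On lists of 46 to 101 sites these are too few listings to place Repair.v2 in that order. DECOR lists were about as long as dCas13d-ADAR lists, at 0.982 times their mean length, but held 1.76 times as many MCM sites.

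**Figure D1:**
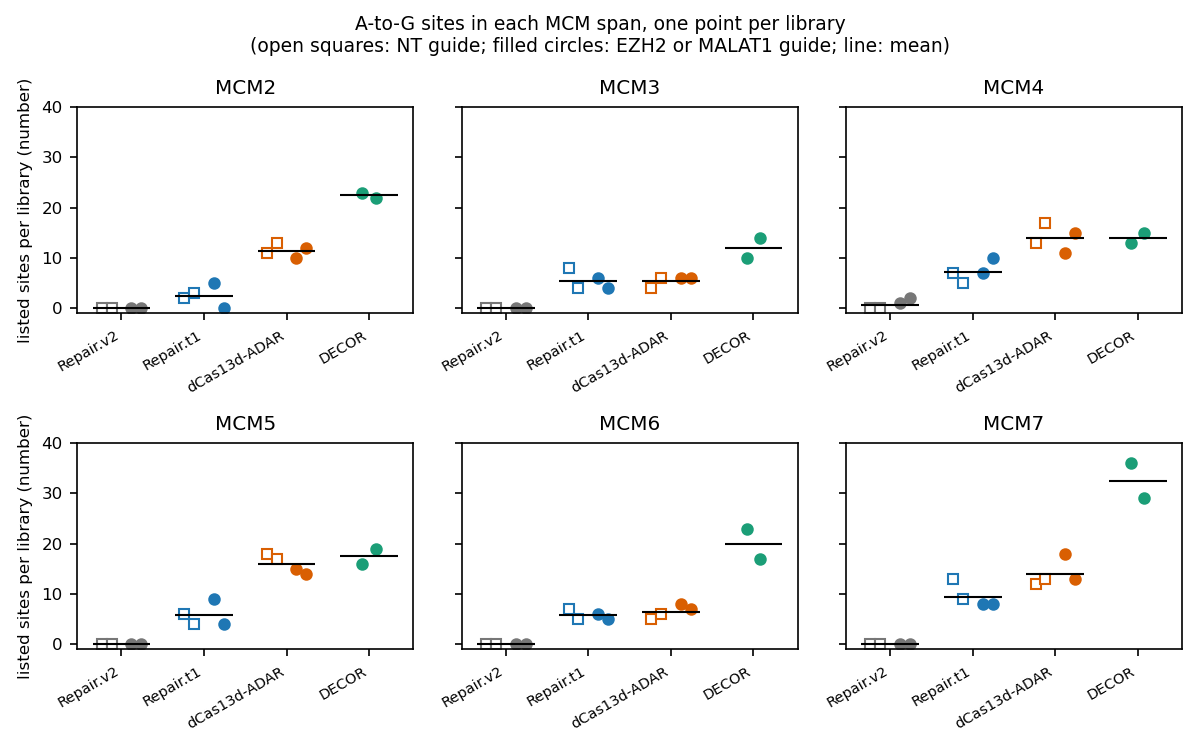
Listed A-to-G sites per library (number, vertical axis) in each of the 6 MCM spans by editor (horizontal axis); each point is a library, open squares mark the NT guide, filled circles the EZH2 or MALAT1 guide, and lines the mean. For MCM2, MCM4 and MCM5 all dCas13d-ADAR libraries lie above all Repair.t1 libraries, and DECOR reaches 36 sites in MCM7. The whole dCas13d-ADAR lists are likewise all longer than the Repair.t1 lists.

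The excess of dCas13d-ADAR over Repair.t1 was uneven across the 6 genes. It was largest for MCM2 and MCM5, whose proteins flank the gate through which DNA enters the ring. For MCM2, dCas13d-ADAR libraries listed 10 to 13 sites and Repair.t1 libraries 0 to 5, a ratio of means of 4.6. For MCM5 they listed 14 to 18 against 4 to 9, a ratio of 2.78. MCM4, a main substrate of the kinase that fires origins, had 11 to 17 sites against 5 to 10, a ratio of 1.93. In these 3 genes no library of one editor reached the range of the other. The whole lists did not overlap either, at 5730 to 5834 sites for dCas13d-ADAR and 4356 to 4784 for Repair.t1. For MCM7, whose protein pairs with MCM4 and MCM6 in a core with helicase activity, the ranges of 12 to 18 and 8 to 13 overlapped, at a ratio of 1.47. MCM6, which binds the loading factor CDT1, had 5 to 8 sites against 5 to 7, and MCM3, which contacts the loading machinery at the origin, 4 to 6 against 4 to 8. The ratios of 1.13 and 1 for these last 2 genes lay below the 1.25 of the whole lists. Whether the genes differ in this ratio was not tested, since being listed is what chose the sites.

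DECOR showed another order of genes. Its libraries listed 29 to 36 sites in MCM7, 22 to 23 in MCM2, 17 to 23 in MCM6, 16 to 19 in MCM5, 13 to 15 in MCM4 and 10 to 14 in MCM3. Neighbours in this order overlapped, apart from MCM7, which lay above the rest, and MCM5, whose lowest library lay above the highest of MCM4. DECOR listed 3.08 times as many sites as dCas13d-ADAR in MCM6, 2.32 times in MCM7, 2.18 times in MCM3 and 1.96 times in MCM2. In MCM5 the ratio was 1.09 and in MCM4 it was 1.00, where the libraries of both editors overlapped.

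MCM7, the shortest span, was the densest. Its 59 distinct sites came to 64.0 per 10 kb, against 26.0 for MCM4, 22.4 for MCM2, 20.1 for MCM5, 17.7 for MCM3 and 11.1 for MCM6. Among the 7047 stretches of 10000 bases in the genome that held a listed site, the median number was 2, and 0.0142% of them held as many sites as the MCM7 density or more. For MCM6 that share was 5.95%. The MCM7 density was scaled up from 59 sites in 9213 bases. The fixed stretch that holds this span, with the same 59 sites, lay below the scaled density and is not among those counted. The stretches were cut at fixed coordinates while the spans follow genes, so these shares set unlike measures side by side and are no test. Spans hold introns, which poly(A) RNA covers thinly, so a density per span is not a density per base of mRNA.

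The sites were gathered towards the 3′ part of some spans and not of others. Over all editors 71 of the 288 sites (24.7%) lay in the last 10% of their span and 11 (3.82%) in the first 10%. Exons were not analysed and coverage along the spans is unknown, so these shares have no baseline, and the part of either was not tested. MCM4 was the most uneven, with 13 of 17 Repair.t1 sites and 16 of 24 dCas13d-ADAR sites in the last 10%, against 3 of 19 DECOR sites. In MCM3, 5 of 11 Repair.t1 sites, 3 of 12 dCas13d-ADAR sites and 7 of 21 DECOR sites lay there. In MCM2 the split between editors went the other way, with 0 of 8 Repair.t1, 5 of 22 dCas13d-ADAR and 13 of 33 DECOR sites. MCM5 had several sites near the other end, with 3 of 11 Repair.t1 and 3 of 26 dCas13d-ADAR sites in the first 10%. MCM6 sites of Repair.t1 and dCas13d-ADAR (10 each) numbered 0 in the first and 0 in the last 10%.

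**Figure D2:**
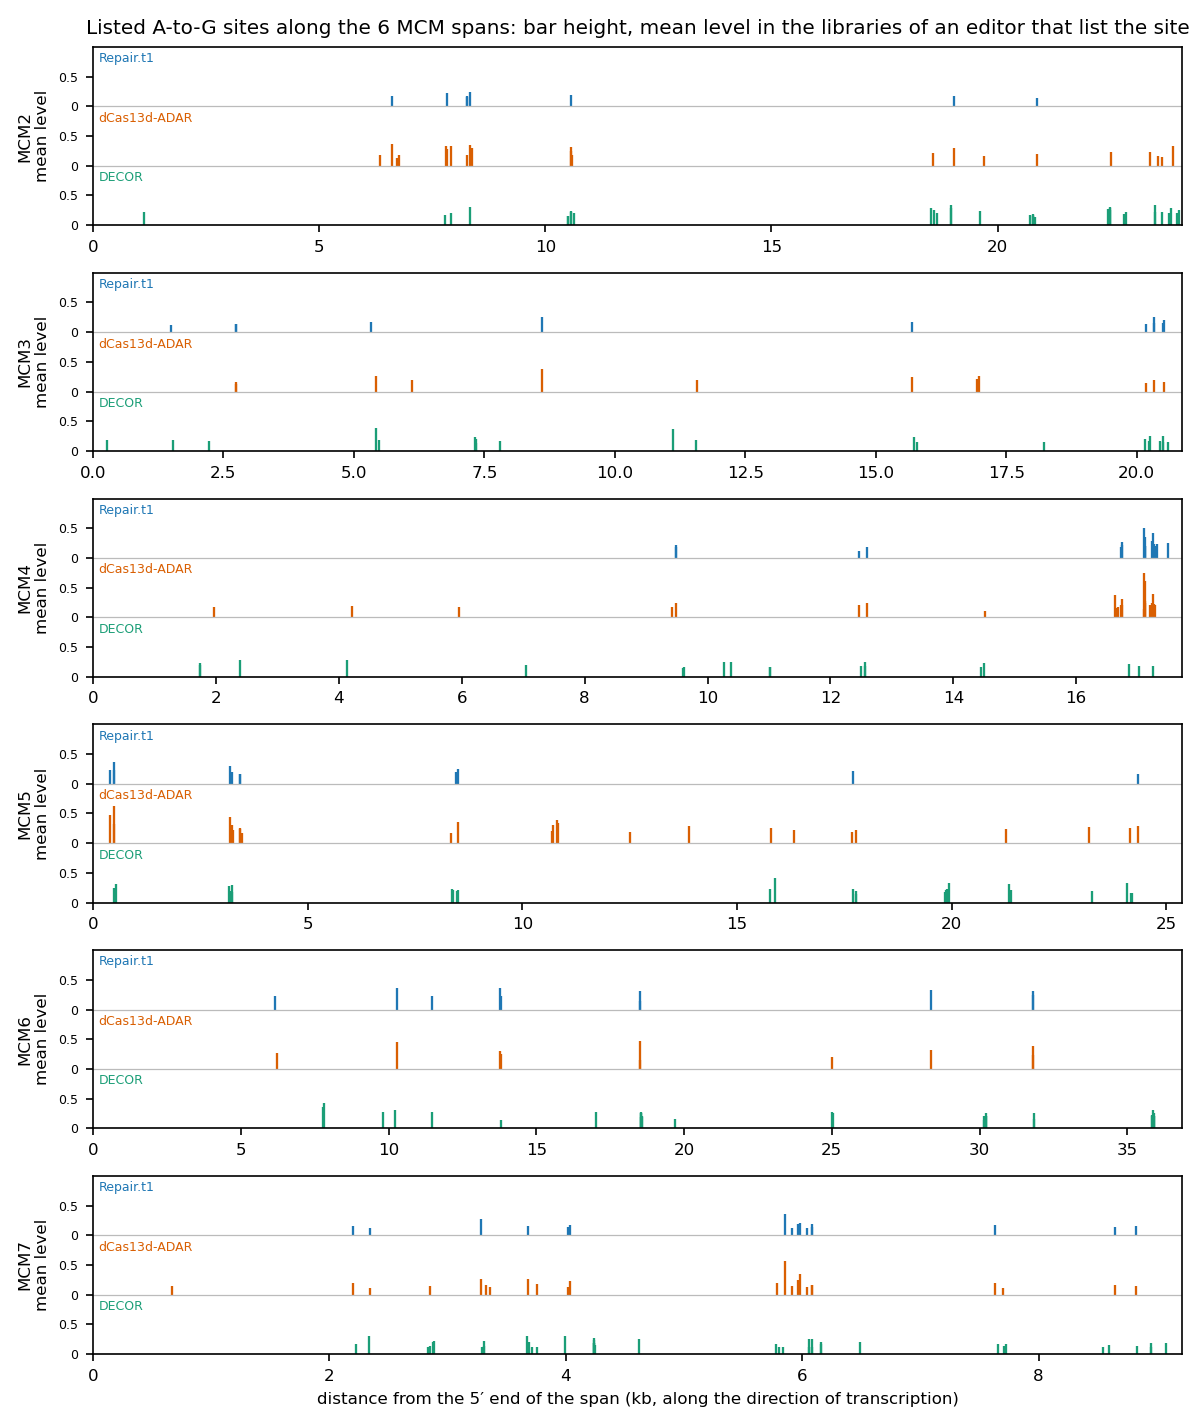
Sites along the 6 MCM spans: the horizontal axis is the distance from the 5′ end of the span in kb, and each bar is a site whose height is the mean level (fraction) over the libraries of Repair.t1 (blue, upper track), dCas13d-ADAR (orange, middle) or DECOR (green, lower) that list it. In every gene most Repair.t1 bars have a dCas13d-ADAR bar at the same place, while 52.1% of all dCas13d-ADAR sites are shared. In MCM4, 12 of the 27 sites of these editors lie within 500 bases near the 3′ end, and DECOR sites are spread more widely.

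The end of MCM4 held the most strongly edited MCM site. In the last 1200 bases of the span dCas13d-ADAR listed 16 sites, Repair.t1 13, Repair.v2 2 and DECOR 3, none of which was in both DECOR libraries. Position 48890109 on chromosome 8, 17.1 kb from the 5′ end, was at 0.767 and 0.8 in the NT and 0.682 and 0.739 in the EZH2 libraries of dCas13d-ADAR. It was at 0.5 in EZH2_A22 replicate 2 of Repair.t1 and at 0.591 in EZH2_A22 replicate 2 of Repair.v2, and no other library listed it. Every dCas13d-ADAR value thus lay above the only values of the other editors. Position 48890114, 5 bases further on, was at 0.621, 0.586, 0.565 and 0.667 in dCas13d-ADAR and at 0.36 in the same Repair.t1 library. At position 48889633 all 4 dCas13d-ADAR libraries listed the site, at 0.36, 0.351, 0.324 and 0.5, and no other library did. All 11 dCas13d-ADAR values of at least 0.5 in MCM4 lay in these last 1200 bases.

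Position 48890247, 17.2 kb from the 5′ end of MCM4, was listed in 10 libraries, the most of any MCM site together with 1 in MCM5. It was at 0.217 and 0.154 in the EZH2_A22 libraries of Repair.v2. In Repair.t1 it was at 0.433 and 0.333 with NT and 0.462 and 0.474 with EZH2_A22. In dCas13d-ADAR it was at 0.28 and 0.519 with NT and 0.241 and 0.5 with EZH2. The Repair.v2 values were the lowest, and the wide dCas13d-ADAR values spanned those of Repair.t1.

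**Figure D3:**
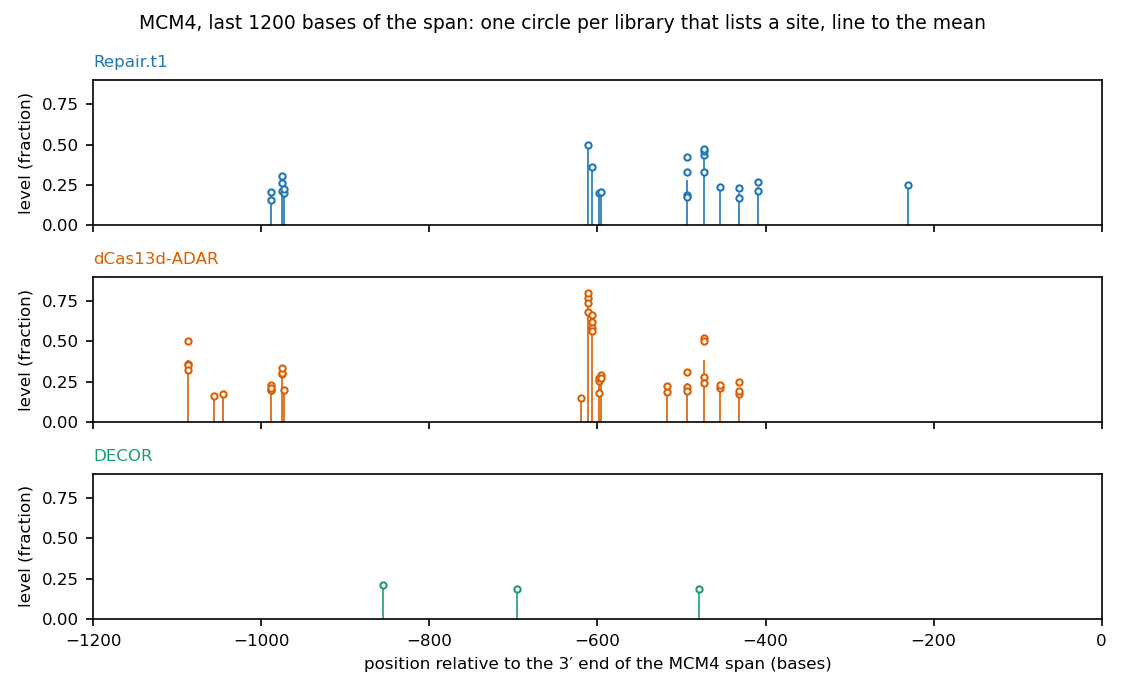
The last 1200 bases of the MCM4 span: the horizontal axis is the position relative to the 3′ end of the span in bases, the vertical axis the A-to-G level (fraction), each circle is a library that lists the site, and lines reach to the mean, with 1 panel each for Repair.t1, dCas13d-ADAR and DECOR. The 2 tallest dCas13d-ADAR sites are 5 bases apart, and DECOR has 3 sites there with 1 circle each.

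MCM sites were on the low side of the Repair.t1 and dCas13d-ADAR lists, and at the level of the whole list for DECOR. The median level per library was 0.209 ± 0.0121 for MCM sites of Repair.t1 (SD, n = 4), against 0.256 ± 0.00700 for its other sites. For dCas13d-ADAR it was 0.238 ± 0.00466 (n = 4) against 0.267 ± 0.00186. For DECOR it was 0.208 ± 0.00328 (n = 2) against 0.209 ± 0.00155. Levels of at least 0.5 made up 25 of the 270 MCM entries of dCas13d-ADAR, counting a site once per library, 1 of 145 for Repair.t1 and 0 of 237 for DECOR. The 25 were 11 in MCM4, 6 in MCM5, 4 in MCM6 and 4 in MCM7. They repeat the same positions: those in MCM7 were all at position 99693705, and those in MCM5 at positions 35796553 and 35796463. Entries of a position are not independent, so the shares that follow are not shares of distinct sites. Over whole lists the shares were 6.88%, 4.62% and 1.69%, and the MCM share of dCas13d-ADAR was 9.26%.

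Among the genes, MCM7 and MCM3 had low levels with Repair.t1, dCas13d-ADAR and DECOR, and MCM5 and MCM6 were among the higher ones. Repair.v2 listed no site in these genes. In dCas13d-ADAR the median level per library was 0.292 ± 0.00946 for MCM5 (SD, n = 4), 0.289 ± 0.0365 for MCM6, 0.262 ± 0.0584 for MCM2, 0.247 ± 0.0186 for MCM4, 0.196 ± 0.0392 for MCM3 and 0.178 ± 0.00667 for MCM7. Each pair of neighbours in this order overlapped. In Repair.t1, MCM6 led at 0.275 ± 0.0263, followed by MCM5 at 0.237 ± 0.0308 and MCM4 at 0.231 ± 0.0264. MCM2 at 0.176 ± 0.00885 (n = 3 libraries with a site), MCM7 at 0.171 ± 0.00790 and MCM3 at 0.167 ± 0.00520 were lower, and each of their libraries lay below every library's MCM4 median. In DECOR, MCM7 was lowest at 0.172 ± 0.00203 (n = 2) and MCM6 highest at 0.225 ± 0.00357, with MCM2 at 0.223 ± 0.00832 and MCM5 at 0.222 ± 0.0141 overlapping MCM6. The MCM7 medians overlapped those of MCM3, at 0.179 ± 0.0174.

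The same MCM positions came back from library to library more often than listed sites in general. The 2 libraries of a group shared 63.3% (NT) and 61.3% (EZH2_A22) of the shorter MCM list for Repair.t1, against 45.7% and 44.9% over whole lists. For dCas13d-ADAR the shares were 68.3% (NT) and 65.7% (EZH2) against 51.1% and 49.7%, and for DECOR 58.6% against 37.5%. Of the 117 MCM sites of dCas13d-ADAR, 28 (23.9%) were in all 4 libraries, against 13.5% of all its sites, and of the 73 of Repair.t1, 13 (17.8%) were, against 9.89%. Coverage of these transcripts is unknown, and its part in the difference was not tested. Recurrent sites had higher levels in dCas13d-ADAR. The 28 dCas13d-ADAR sites in all 4 libraries had a median of their mean levels of 0.333, against 0.184 for the 44 sites in 1 library. In Repair.t1 the 13 sites in all 4 libraries were at 0.267, while the 17 in 2 libraries were at 0.180, beside 0.182 for the 35 in 1. In DECOR the medians were close, at 0.213 for the 68 sites in both libraries and 0.2 for the 101 in 1. A site at a low level may miss the calling threshold in some libraries. Level and recurrence are therefore not independent measures, and the part of the threshold was not tested.

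Most MCM sites of Repair.t1 were also sites of dCas13d-ADAR. Of the 73 sites of Repair.t1, 61 (83.6%) were in a dCas13d-ADAR list, against 54.5% over all sites, and these 61 were 52.1% of the 117 sites of dCas13d-ADAR, against 47.0% over all sites. In MCM7 all 16 sites of Repair.t1 were among the 23 of dCas13d-ADAR. In MCM6 the editors had 10 sites each and shared 8. In MCM3, 7 of 11 Repair.t1 sites were shared, the lowest share of the 6 genes. MCM2 and MCM5 had the most sites on the dCas13d-ADAR side alone: 7 of its 22 MCM2 sites and 9 of its 26 MCM5 sites were in a Repair.t1 list. A site in all 4 libraries of dCas13d-ADAR and none of Repair.t1 was found 2 times among the 288 MCM sites and 178 times among all 26172, about the same share. The 2 were at position 48889633 of MCM4 and position 35799527 of MCM5, and at the latter the levels were 0.175, 0.167, 0.171 and 0.2. The reverse was found 0 times in the MCM spans and 79 times among all sites.

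Most DECOR sites in the MCM spans were its own. Of 169, 10 (5.92%) were also listed by Repair.t1 or dCas13d-ADAR, against 3.69% over all DECOR sites, and 63 of the 68 in both DECOR libraries were in no other list, a slightly lower share than the 1972 of 2067 over all sites. MCM3 and MCM4 shared 0 of their 21 and 19 DECOR sites with the other editors. Many DECOR sites were nonetheless close to a site of the others: 82 of 169 (48.5%) lay within 50 bases of a Repair.t1 or dCas13d-ADAR site or on it, against 32.3% over the whole genome. The highest sites in both DECOR libraries were position 35811948 on chromosome 22 in MCM5 (0.429 and 0.382), position 52138569 on chromosome 6 in MCM3 (0.3 and 0.423) and position 127340692 on chromosome 3 in MCM2 (0.452 and 0.243). They were followed by positions 35815998 (0.31 and 0.355) and 35820151 (0.25 and 0.412) in MCM5. None of these 5 was listed by another editor.

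The 10 positions that DECOR shared lay in MCM7 (4), MCM5 (3), MCM2 (2) and MCM6 (1). Position 35804547 of MCM5, 8.49 kb from the 5′ end, was in both DECOR libraries at 0.25 and 0.182 and in all 8 of Repair.t1 and dCas13d-ADAR. Position 99693477 of MCM7 was at 0.195 and 0.326 in DECOR, at 0.171 to 0.190 in the 4 Repair.t1 libraries and at 0.150 to 0.167 in 3 dCas13d-ADAR libraries. Its neighbour 99693481, 4 bases away, was in 1 DECOR library at 0.116. Position 127325539 of MCM2 was at 0.308 and 0.294 in DECOR, between the single Repair.t1 value of 0.25 and the 3 dCas13d-ADAR values of 0.333 to 0.375. Positions 99695880 (0.217 and 0.121) and 99695808 (0.125 and 0.113) of MCM7 were also in both DECOR libraries, and the latter lay below its 3 dCas13d-ADAR values of 0.167 to 0.184. Positions 35796556 (0.25) and 35799292 (0.182) of MCM5, 127340835 (0.229) of MCM2 and 136622587 (0.273) of MCM6 were each in 1 DECOR library.

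DECOR sites in these genes stood close together more often than DECOR sites in general. Of 169, 31 (18.3%) had another DECOR site within 2 bases, against 6.79% of all DECOR sites, and the median distance to the nearest was 20 bases against 140. For Repair.t1 the share within 2 bases was 11.0% against 4.71%, and for dCas13d-ADAR 3.42% against 3.44%. Listed sites were denser in the spans than in most stretches of the genome that held a site, and the part of density in the spacing was not tested. In MCM7, 4.24 kb from the 5′ end, 5 DECOR sites fell in 7 bases, chr7:99695320-99695326. The first 3, at positions 99695320, 99695322 and 99695324, were in both libraries, at 0.143 and 0.167, at 0.279 and 0.256, and at 0.24 and 0.146. Positions 99695325 and 99695326 were in replicate 1 alone, at 0.18 and 0.237. In MCM6, 6 DECOR sites filled 21 bases, chr2:136615481-136615501, at mean levels of 0.193 to 0.276, and 3 of them were in both libraries. No site of either run was listed by another editor, though position 136615520, which all 8 libraries of Repair.t1 and dCas13d-ADAR listed, lay 19 bases from the second run.

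Whether dCas13d-ADAR and Repair.t1 edited a site to different levels could be tested at 8 of the 288 sites, those listed in all 8 libraries of both editors. The other 280 were missing from at least 1 of these libraries. Allowing 1 missing library brought 7 more MCM sites into the test, none of which passed (limma adjusted p of 0.458 to 0.950). With limma on the log2 odds of the level, adjusted by Benjamini-Hochberg over all 609 sites of the genome listed in the 8 libraries, 2 of the 8 passed an adjusted p of 0.05, both higher in dCas13d-ADAR. Over all 609 sites 44 (7.22%) passed, 40 (6.57%) of them higher in dCas13d-ADAR. With 8 sites, 2 calls give no more than a rough share to set beside that. The mean level was higher in dCas13d-ADAR at 6 of the 8, against 74.7% of all 609, and the median difference was 0.88 log2 units of odds over the 8 and 0.34 over the 609. The number of MCM sites passing was 1 without Repair.t1 NT replicate 2, Repair.t1 EZH2_A22 replicate 2, dCas13d-ADAR NT replicate 1 or dCas13d-ADAR NT replicate 2, and 3 without Repair.t1 NT replicate 1. Over all sites it was 19, 18, 10, 30 and 39 without these libraries.

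The largest rise was near the 5′ end of MCM5. Position 35796553 on chromosome 22, 0.497 kb from the 5′ end, was at 0.353 and 0.429 with NT and 0.385 and 0.28 with EZH2_A22 in Repair.t1. In dCas13d-ADAR it was at 0.6 and 0.522 with NT and 0.679 and 0.714 with EZH2. All dCas13d-ADAR libraries lay above all Repair.t1 libraries, as at 4 of the 8 MCM sites and at 11.5% of all 609. The means were 0.362 ± 0.0626 and 0.629 ± 0.0858 (SD, n = 4 each), a difference of 1.58 log2 units of odds (SE 0.36, limma adjusted p = 0.00583). Without Repair.t1 EZH2_A22 replicate 2 the limma adjusted p was 0.0524 at a difference of 1.32. Within the NT libraries alone the difference was 0.98 (limma adjusted p = 0.308). Within the EZH2 libraries alone, EZH2_A22 in Repair.t1 and EZH2 in dCas13d-ADAR, it was 2.17 (limma adjusted p = 0.185). There, editor and guide label cannot be told apart. The next site, 3 bases on at position 35796556, was in all 4 dCas13d-ADAR libraries at a mean of 0.322 ± 0.102 and in 1 Repair.t1 library at 0.231. Another site of this stretch, position 35796463 at 0.407 kb, was at 0.219 and 0.233 in the NT libraries of Repair.t1 and in neither EZH2_A22 library. In dCas13d-ADAR it was at 0.593 and 0.606 with NT and 0.282 and 0.441 with EZH2, above every Repair.t1 value. It was missing from 2 of the 8 libraries, and among the NT libraries alone it was the only MCM site of 12 to pass (difference 2.30, limma adjusted p = 0.0321).

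The other called site was in the middle of MCM7. Position 99693705 on chromosome 7, 5.86 kb from the 5′ end, was at 0.356 and 0.306 with NT and 0.316 and 0.436 with EZH2_A22 in Repair.t1. In dCas13d-ADAR it was at 0.553 and 0.59 with NT and 0.5 and 0.659 with EZH2. Again the lowest dCas13d-ADAR library lay above the highest Repair.t1 library. The difference was 1.30 log2 units of odds (SE 0.36, limma adjusted p = 0.0155). This call was lost on leaving out any of 5 libraries: Repair.t1 NT replicate 2 (limma adjusted p = 0.0691), Repair.t1 EZH2_A22 replicate 1 (0.0581), dCas13d-ADAR NT replicate 1 (0.0730) or replicate 2 (0.0508), or dCas13d-ADAR EZH2 replicate 2 (0.0648). Within the NT libraries alone the difference was 1.41 (limma adjusted p = 0.148) and within the EZH2 libraries alone 1.19 (limma adjusted p = 0.389).

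The same stretch of MCM7 held 8 of the Repair.t1 and dCas13d-ADAR sites within 500 bases. Position 99693580 was at 0.27, 0.114, 0.308 and 0.125 in Repair.t1 and at 0.463, 0.366, 0.333 and 0.212 in dCas13d-ADAR. The libraries overlapped, and the difference of 1.07 log2 units of odds (SE 0.39) did not pass, at a limma adjusted p of 0.0755. It passed without Repair.t1 NT replicate 1 (0.0434), Repair.t1 EZH2_A22 replicate 1 (0.00820) or dCas13d-ADAR EZH2 replicate 2 (0.0352). It also passed when the spread was allowed to follow the mean level (0.0445), which brought the MCM sites passing to 3. At position 99693646 the levels were 0.120 to 0.130 in 3 Repair.t1 libraries and 0.133 to 0.156 in dCas13d-ADAR, and at 99693477 they were 0.184 ± 0.00849 (SD, n = 4) and 0.160 ± 0.00872 (n = 3). These 2 sites were missing from 1 library each. With 1 missing library allowed, they differed by 0.22 (limma adjusted p = 0.818) and -0.22 (limma adjusted p = 0.817) log2 units of odds. At position 99696280, further towards the 5′ end, the means of 0.267 and 0.256 differed by -0.12 log2 units of odds (SE 0.36, limma adjusted p = 0.888).

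**Figure D4:**
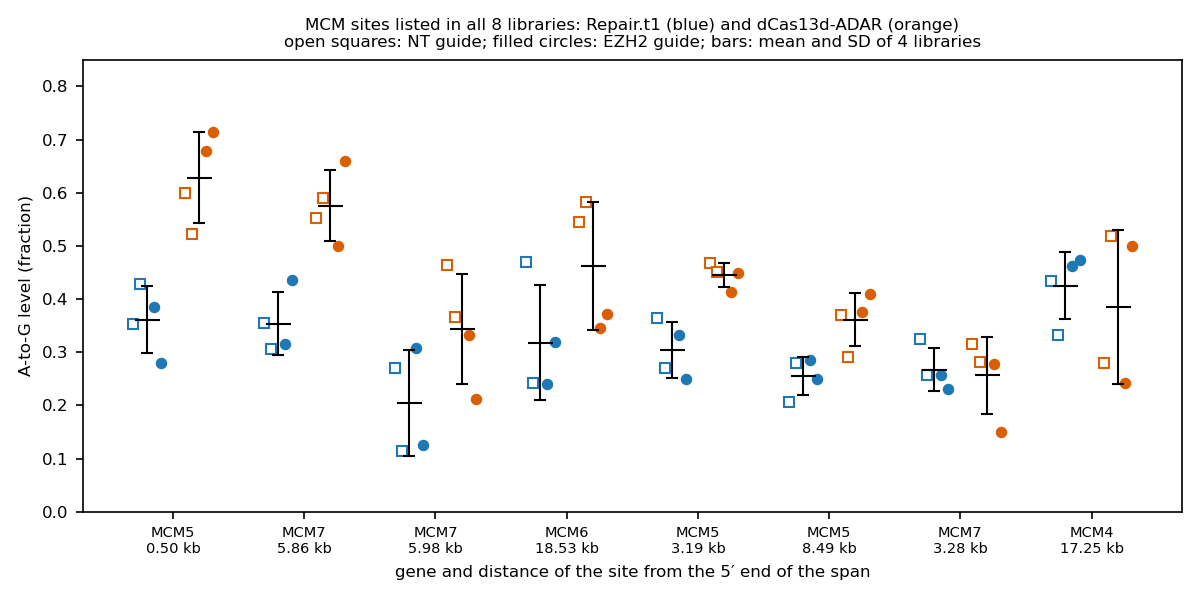
A-to-G level (fraction, vertical axis) at the 8 MCM sites listed in all libraries of Repair.t1 (blue) and dCas13d-ADAR (orange), named by gene and distance from the 5′ end of the span; open squares are NT and filled circles EZH2 libraries, and bars the mean and SD of 4 libraries. At every MCM5 site and at the MCM7 site at 5.86 kb all orange points lie above all blue ones. Of these, only the first MCM5 site and the MCM7 site passed the test. At MCM4 the orange points run from 0.241 to 0.519 around the blue ones.

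At 3.19 to 3.47 kb from the 5′ end of MCM5, dCas13d-ADAR listed 7 sites and Repair.t1 4 of them. At 2 further tested sites of MCM5 the libraries did not overlap but the test did not pass. Position 35799250 had means of 0.304 ± 0.0531 in Repair.t1 and 0.446 ± 0.0230 in dCas13d-ADAR (SD, n = 4 each), a difference of 0.87 log2 units of odds (SE 0.35, limma adjusted p = 0.115). Position 35804547 had means of 0.255 ± 0.0365 and 0.361 ± 0.0503, a difference of 0.70 (SE 0.35, limma adjusted p = 0.192). In MCM6, position 136615520 had means of 0.318 ± 0.108 and 0.462 ± 0.120 with overlapping libraries, a difference of 0.89 (SE 0.37, limma adjusted p = 0.120). In MCM4, position 48890247 had a lower mean in dCas13d-ADAR, 0.385 ± 0.145 against 0.425 ± 0.0637, a difference of -0.28 (SE 0.38, limma adjusted p = 0.705). All 8 tested sites thus lay in MCM4, MCM5, MCM6 and MCM7, and MCM2 and MCM3 had none.

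In MCM2 and MCM3 some recurrent sites were listed in more libraries of dCas13d-ADAR, and in MCM3 others were listed in more of Repair.t1. Position 127323817 of MCM2, 6.62 kb from the 5′ end, was at 0.394, 0.393, 0.308 and 0.343 in dCas13d-ADAR and at 0.143 and 0.2 in the NT and EZH2_A22 replicate 1 libraries of Repair.t1. Position 52141068 of MCM3, 8.61 kb from the 5′ end, was at 0.459, 0.433, 0.375 and 0.281 in dCas13d-ADAR and at 0.343 and 0.182 in 2 Repair.t1 libraries. The values did not overlap at the MCM2 site and did at the MCM3 site. Near the 3′ end of MCM3, 2 sites were listed in more Repair.t1 than dCas13d-ADAR libraries, with overlapping values at both. Position 52129349 was at 0.286, 0.227, 0.2 and 0.286 in Repair.t1 and at 0.167 and 0.227 in 2 dCas13d-ADAR libraries. Position 52129161 was at 0.25, 0.171, 0.234 and 0.14 in Repair.t1 and at 0.156 in 1 dCas13d-ADAR library. In MCM6, position 136623761 was at 0.3, 0.381 and 0.4 in 3 Repair.t1 libraries and at 0.391, 0.517, 0.292 and 0.619 in dCas13d-ADAR, with overlapping values. None of these sites was in all 8 libraries. The MCM6 site, missing from 1, differed by 0.58 log2 units of odds with 1 missing library allowed (SE 0.43, limma adjusted p = 0.458), and the other 4 were missing from 2 or more and were not tested.

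**Figure D5:**
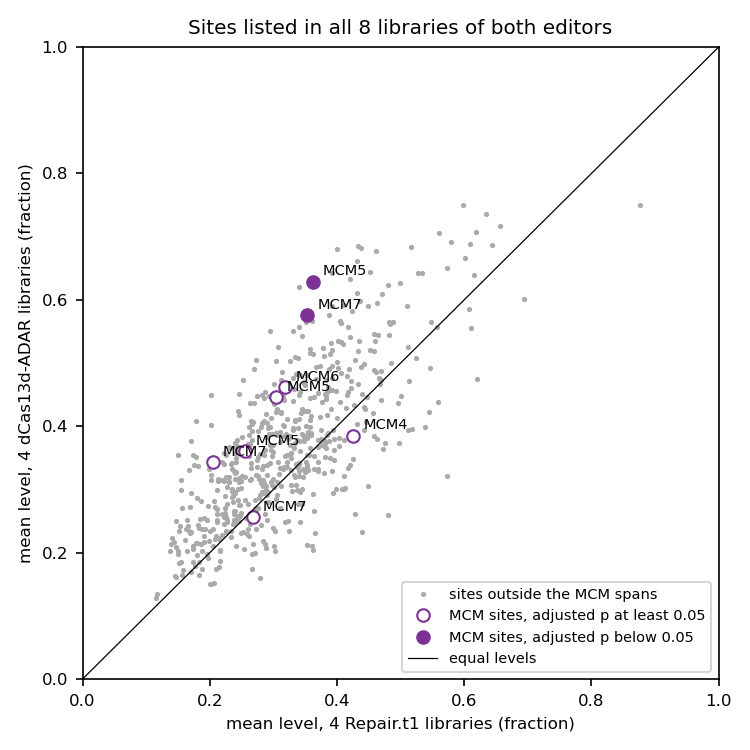
Mean level (fraction) over 4 Repair.t1 libraries (horizontal axis) and over 4 dCas13d-ADAR libraries (vertical axis) at the 609 sites listed in all 8; grey dots lie outside the MCM spans, purple circles inside, filled where the limma adjusted p was below 0.05, and the line marks equal levels. Of the 8 MCM sites 6 lie above the line, the MCM5 and MCM7 sites with filled circles farthest from it.

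No change of level with the EZH2 guide was detected at an MCM site. In Repair.t1, 13 MCM sites were in all 4 libraries, and 0 passed in limma, as did 0 of all 1053 sites (0%), with 1 of the 13 and 61 of the 1053 at an unadjusted p below 0.05. That site was position 48890227 of MCM4, at 0.188 and 0.179 with NT and 0.423 and 0.333 with EZH2_A22, a difference of 1.39 log2 units of odds (SE 0.47, limma adjusted p = 0.837). In dCas13d-ADAR the same position was at 0.219 and 0.192 with NT and at 0.310 in 1 EZH2 library. In dCas13d-ADAR, 28 MCM sites could be tested between guides, and limma called 0 of them, as it did 0 of 1665 (0%), with 2 of the 28 and 87 of the 1665 at an unadjusted p below 0.05. These were position 35796463 of MCM5, at 0.593 and 0.606 with NT and 0.282 and 0.441 with EZH2 (difference -1.40, SE 0.50, limma adjusted p = 0.848), and position 136615520 of MCM6, at 0.545 and 0.583 with NT and 0.346 and 0.371 with EZH2 (difference -1.19, SE 0.48, limma adjusted p = 0.922). These 3 sites are named because of their values, outside the rule for named sites. Taking EZH2_A22 and EZH2 as the same guide, an interaction between guide and editor was tested in limma over the 609 sites. It was passed by 0 of the 8 MCM sites and 0 of all, with 41 of the 609 reaching an unadjusted p below 0.05. The smallest unadjusted p among the 8 was 0.0992, at position 35796553 of MCM5.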

How the data were processed

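The data were 1 list of A-to-G sites per library. Per the labels, polyadenylated RNA was enriched and directional libraries were built. The authors deposited a fraction for every site, its A-to-G rate, per the file headers. The submitters' processing notes name cutadapt, STAR 2.6.1b and the builds hg19 and GRCh37. The sources used here do not give the site caller or its thresholds. No rate lay below 0.0597.

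Sites inside the 6 spans were taken from all 14 lists. The members and lists of results were chosen with earlier results of these data known. Levels entered limma 3.58.1 (lmFit, eBayes, Benjamini-Hochberg) as log2 odds after adding 0.01 to both terms of the odds, over all sites listed in each library compared. Between editors the guide was a covariate, with EZH2_A22 of Repair.t1 and EZH2 of dCas13d-ADAR both coded as EZH2. The labels do not say whether these are the same guide. The fit was checked only for returning, on average, an added difference in simulated data with the same spread at every site. That check does not give the rate of missed or false calls in these data. Alternatives were another added constant, untransformed levels, a minimum level, 1 missing library, a spread that follows the mean, a replicate block, 1 guide alone and each library left out. Named sites are, in the spans, the most recurrent site of each gene, the 5 highest in all libraries of Repair.t1, dCas13d-ADAR and DECOR, the sites tested between editors, those of Repair.v2 and those DECOR shared. Others were named after their values were seen. Further origin licensing genes were not analysed here because no hg19 annotation was used. Calculations used Python 3.11.15, pandas 2.3.3, numpy 2.4.6, R 4.3.3 and matplotlib 3.10.9.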

Additional observations from a re-analysis of the deposited data

Results flagged for a closer look

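In dCas13d-ADAR the number of MCM3 sites was 4 in NT replicate 1 and 6 in each of the other 3 libraries, and the number of MCM7 sites was 18 in EZH2 replicate 1 and 12, 13 and 13 in the others. In both cases the gap to the nearest library was above Dixon's critical value as a share of the range of the 4 libraries, at 1 and 0.833. Of 56 sets of 4 libraries looked at, these 2 stood apart, and chance gives about 1 in 20.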

How the results depend on the processing

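The numbers of MCM sites kept their order between editors under each alternative. With levels of at least 0.2 the mean per library was 20.5 for Repair.t1 and 67.0 for DECOR, and counting only sites in both libraries of a group it was 19.0 for Repair.t1, 43.5 for dCas13d-ADAR and 68.0 for DECOR. Leaving out 1 library gave 34.0 to 38.3 for Repair.t1, 66.0 to 69.0 for dCas13d-ADAR, 116 to 121 for DECOR and 0.333 (without EZH2_A22 replicate 2) to 1.00 for Repair.v2. Median MCM levels with levels of at least 0.2 were 0.265, 0.290 and 0.250 for Repair.t1, dCas13d-ADAR and DECOR, and with sites in both libraries 0.253, 0.271 and 0.215. Leaving out 1 library gave 0.204 to 0.213, 0.236 to 0.240 and 0.206 to 0.211.

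Between dCas13d-ADAR and Repair.t1, 1 MCM site and 2 of all sites passed in limma with NT libraries only, and 0 (2 of 15 MCM sites at an unadjusted p below 0.05) and 0 of all (114) with EZH2 libraries only. Leaving out 1 library gave 1 to 3 MCM sites and 10 to 42 of all. All sites were fewest without dCas13d-ADAR NT replicate 1 (10), Repair.t1 EZH2_A22 replicate 2 (18) and Repair.t1 NT replicate 2 (19). The difference at MCM7 99696280 turned to 0.057 with NT libraries only and ranged from -0.30 to 0.13 on leaving out 1 library, above 0 without dCas13d-ADAR EZH2 replicate 2. That at MCM4 48890247 turned to 0.066 with NT libraries only and ranged from -0.63 to 0.11, above 0 without dCas13d-ADAR EZH2 replicate 1. The cause was not tested.

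With the replicate number as a block, 2 MCM sites and 44 of all passed in limma between these editors, as without it, and 0 passed between guides in either editor. Deviations of libraries with the same number correlated at -0.01 to 0.06, so the numbers were not taken to pair libraries. Guide comparisons stayed at 0 calls under each of their 10 alternatives.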
